A study of Rattus norvegicus with 13 samples.

Results

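Midbrain dopamine neurons are specified and kept by a small set of transcription factors. A group of 9 midbrain factors was examined in RNA of the whole rat hypothalamus: Nr4a2, Pitx3, Foxa1, Foxa2, Lmx1a, Lmx1b, En1, En2 and Sox14. Among them, Sox14 is a factor of GABA neurons rather than of dopamine neurons. The genes were picked by name from general knowledge of the midbrain, after dopamine neuron genes had been seen to differ between the diets in these same rats. The difference of these genes between diets is therefore given as a description. Their calls in the fit over all genes are counted beside the share of all genes called, and again under other settings, and support nothing. Of the 9 names, 7 had a row among the 17366 rows of the table, and Lmx1b and En1 had none and were not analysed here. Levels are FPKM, fragments scaled to transcript length and to the mapped fragments of the library, so that levels of different genes can be set side by side. A level under 0.5 FPKM is called near the floor, and rats are numbered by replicate within each diet.

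The samples were 13 rats, 7 on standard chow (Lab Rodent Diet 5001, 0.30% fructose) and 6 on a high-fructose diet (Research diets D05111802, 55% fructose). The rats, in pairs in a cage, ate these diets from postnatal day 25, went without food from day 79, and were killed on day 80. That was 1 h after either glucose, at 2 g per kg, or saline had been given into the peritoneum. The labels used here do not tell which of the 13 rats had glucose, which shared a cage, or their strain and sex, and name no batch. Total FPKM in a library lay between 556902 and 608058. Tissue was the whole hypothalamus with no sorting of cells, so fewer cells of a type and less RNA per cell cannot be told apart.

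As background, floor plate cells of the embryonic midbrain express the forkhead factors Foxa1 and Foxa2 and the LIM homeodomain factors Lmx1a and Lmx1b, and give rise to dopamine neurons. The orphan nuclear receptor Nr4a2 (Nurr1) and the homeodomain factor Pitx3 then turn on and maintain the genes of dopamine synthesis, storage and uptake. En1 and En2, the engrailed factors, mark the midbrain and anterior hindbrain, and Sox14 is a factor of GABA neurons in midbrain and neighbouring nuclei. Foxa1, Lmx1a and Lmx1b are also known from glutamate neurons of the posterior hypothalamus and the subthalamic nucleus, where Barhl1 is expressed, and Nr4a2 is known from many forebrain neurons and as an immediate early gene.

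Defining peptides of the lateral hypothalamus were abundant. Pmch, melanin-concentrating hormone, averaged 5107 ± 1083 FPKM in chow rats (SD, n = 7) against 3494 ± 1782 FPKM in fructose rats (SD, n = 6), and Hcrt, orexin, 700.4 ± 171 and 527 ± 294 FPKM. Of the arcuate nucleus, Agrp was low at 0.724 ± 0.555 and 0.469 ± 0.36 FPKM, while Pomc averaged 4.39 ± 0.894 and 6.97 ± 4.99 FPKM. Some peptides varied widely between rats. Oxt, oxytocin, ran from 8.97 to 1455 FPKM on chow and from 2.04 to 359 FPKM on fructose. Avp, vasopressin, ran from 5.08 to 601 FPKM on chow and from 0.451 to 214 FPKM on fructose. Of 19 tested genes of hypothalamus identity 0 were called by limma after adjustment over all genes, and 2 had an unadjusted limma p under 0.05. Over all 11837 genes tested these counts were 466 and 2269. The exact permutation test per gene gave 1 of the 19 unadjusted and 0 after adjustment, against 2223 and 0 over all genes. No stability of the list is read from these counts. Slc6a3, the dopamine transporter, separates dopamine neurons of the midbrain from most other cells. It lay between 0.285 and 0.978 FPKM in 6 chow rats, at 5.95 FPKM in chow replicate 5 and between 28.3 and 125 FPKM in the fructose rats. Nr4a2 and Lmx1a, by contrast, were at 1.39 FPKM or more in every chow rat, so that in these tissues they were found with little Slc6a3 as well as with much.

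The genes differed in their level on chow. Nr4a2 and Lmx1a were above the floor in every chow rat and Foxa1 in 5 of 7, whereas Pitx3 and En2 were near the floor in all 7 chow rats, Foxa2 in 5 and Sox14 in 4. Among the fructose rats Pitx3, En2 and Foxa2 were highest in replicate 1, the rat with the highest Slc6a3, and lowest in replicate 6, the rat with the lowest.

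Of these genes 6, all but Foxa1, had an entry in the RefSeq promoter table (build GRCr8). The 250 bases before the listed start are shown for Pitx3 and En2, which were highest in the same fructose rat and lowest in the same fructose rat, and for Nr4a2 and Lmx1a, which ranked the 7 chow rats in the same order. Foxa2 was highest and lowest in the same fructose rats as Pitx3 and En2, but its window is not printed. Each is written 5′ to 3′ on the strand of the gene, with CG dinucleotides, the sites of CpG methylation, in capitals. Pitx3 lies at chr1:254955326-254955575 (minus strand), En2 at chr4:7960794-7961043 (minus strand), Nr4a2 at chr3:62104888-62105137 (minus strand) and Lmx1a at chr13:82367683-82367932 (plus strand).
Pitx3: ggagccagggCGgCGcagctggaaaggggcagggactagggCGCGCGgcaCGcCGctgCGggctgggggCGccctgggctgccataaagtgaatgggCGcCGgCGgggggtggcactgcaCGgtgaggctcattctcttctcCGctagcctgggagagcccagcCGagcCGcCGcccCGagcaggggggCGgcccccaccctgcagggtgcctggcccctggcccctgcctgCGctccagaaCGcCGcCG
En2: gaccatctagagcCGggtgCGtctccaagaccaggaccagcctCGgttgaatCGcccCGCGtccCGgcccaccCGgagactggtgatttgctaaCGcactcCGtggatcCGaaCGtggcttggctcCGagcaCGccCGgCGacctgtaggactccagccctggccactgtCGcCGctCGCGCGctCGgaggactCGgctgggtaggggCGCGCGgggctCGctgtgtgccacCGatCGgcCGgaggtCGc
Nr4a2: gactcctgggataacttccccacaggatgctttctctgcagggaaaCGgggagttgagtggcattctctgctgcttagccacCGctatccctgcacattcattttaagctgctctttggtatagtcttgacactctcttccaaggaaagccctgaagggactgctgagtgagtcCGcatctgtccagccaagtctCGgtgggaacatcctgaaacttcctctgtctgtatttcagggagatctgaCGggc
Lmx1a: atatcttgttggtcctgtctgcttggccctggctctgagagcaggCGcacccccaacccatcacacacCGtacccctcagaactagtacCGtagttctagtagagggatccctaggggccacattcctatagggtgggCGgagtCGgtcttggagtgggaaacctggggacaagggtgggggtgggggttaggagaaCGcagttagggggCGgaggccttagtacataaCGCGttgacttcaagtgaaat

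The window of Pitx3 held 23 CG dinucleotides with 76% G and C, and that of En2 held 31 with 70%. Nr4a2 had 5 with 52%, and Lmx1a 9 with 56.8%. Over all 33469 promoter entries of the same length the median was 5 CG dinucleotides with 51.2% G and C, and 12.3% of entries had at least as many CG dinucleotides as Pitx3, 4.68% as En2, 55.3% as Nr4a2 and 38.5% as Lmx1a. The other windows, of Foxa2 and Sox14, held 5 and 19, with 42.8% and 66.4% G and C. Foxa2 thus shared its highest and lowest fructose rats with Pitx3 and En2 but not their CG content. A relation of CG content to the levels in rats was not tested. All 6 windows were also searched on both strands for the letters AAAGGTCA (the NBRE motif bound by NR4A receptors), for the forkhead letters TGTTTAC or TGTTTGC as well as TATTTAC or TATTTGC, for the homeodomain letters TAATTA, for the bicoid-type letters TAATCC, and for the SOX letters ACAATG. No motif overlaps another in these letters except that both homeodomain motifs begin with TAAT. A match was found in 0 of 6 for each of the 5 motifs, against 1.24%, 12.2%, 4.86%, 6.34% and 11.1% of all entries, which says only that these letters are not in these windows.

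Nr4a2 had the highest mean level of the 7 genes on both diets. On chow it ran from 1.64 FPKM (chow replicate 4) through a median of 4.99 to 7.85 FPKM (chow replicate 5), and on fructose from 7.36 through a median of 11.1 to 12.5 FPKM. The lowest fructose rats, replicates 5 and 6, lay within the chow range, and the other 4 lay above all chow rats. The means were 4.61 ± 2.63 (SD, n = 7) and 10.2 ± 2.26 FPKM (SD, n = 6), a ratio of 2.21, and the log2 fold change on the log2(FPKM + 0.5) scale was 1.23 ± 0.32 (SE). The highest chow rat had 4.78 times the level of the lowest, against 1.70 times on fructose.

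Lmx1a came next. It ran from 1.39 FPKM (chow replicate 4) through a median of 3.35 to 6.75 FPKM (chow replicate 5) on chow, and from 5.57 through 7.79 to 10.04 FPKM on fructose. As with Nr4a2, 4 fructose rats lay above all chow rats, and replicates 5 and 6 lay within the chow range. The log2 fold change was 1.04 ± 0.29 (SE), with means of 3.95 ± 2.13 and 7.80 ± 1.64 FPKM. Nr4a2 exceeded Lmx1a in 6 of 7 chow rats and 6 of 6 fructose rats, though on chow the gap between their means was smaller than the SD of either gene.

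Foxa1 was several times lower than either. Its chow values ran from 0.225 (chow replicate 4) through a median of 0.823 to 1.68 FPKM (chow replicate 5), with 2 of 7 rats near the floor, and its fructose values from 1.62 through 2.24 to 3.01 FPKM. The diets overlapped in chow replicate 5 and fructose replicates 5 and 6, and the log2 fold change was 1.06 ± 0.24 (SE). The same chow rats, replicates 4 and 5, were thus lowest and highest for all 3 genes.

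Foxa2, the paralog of Foxa1, was much lower on chow. It was listed at 0 in 2 of 7 chow rats and was near the floor in 5, with a median of 0.0692 FPKM and a highest value of 0.724 FPKM in chow replicate 5. On fructose it ran from 0.726 (replicate 6) through 2.07 to 4.30 FPKM (replicate 1). The lowest of the 6 fructose rats was above the highest of the 7 chow rats, though fructose replicate 6 and chow replicate 5 differed only in the third digit. The log2 fold change was 1.84 ± 0.31 (SE), and on fructose Foxa2 and Foxa1 had like means, 2.25 ± 1.25 and 2.28 ± 0.64 FPKM, with Foxa1 higher in 3 of 6 rats.

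Pitx3 was listed at 0 in 5 of 7 chow rats and stood at 0.297 and 0.276 FPKM in chow replicates 1 and 6, so that its chow level was near the floor in every rat. On fructose it ran from 0.235 (replicate 6) through a median of 1.67 to 4.77 FPKM (replicate 1), a range of 20.3 times. Fructose replicate 6 was near the floor and below both chow rats with a value above 0, and the other 5 fructose rats lay above all chow rats. The log2 fold change was 1.90 ± 0.34 (SE), from a mean of 0.0819 ± 0.14 to 2.00 ± 1.53 FPKM.

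En2 was near the floor in all 7 chow rats, at 0 in 3 and at most at 0.177 FPKM. On fructose it ran from 0.243 (replicate 6) through 0.802 to 1.69 FPKM (replicate 1), above all chow rats in 6 of 6. Its mean over all rats, 0.444 FPKM, was under the level of 0.5 FPKM that a gene needed to be tested. Fitted with no filter on low values, its log2 fold change was 1.21 ± 0.20 (SE).

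Sox14 ran from 0.192 through 0.412 to 0.746 FPKM on chow, near the floor in 4 of 7 rats, and from 0.665 through 1.07 to 1.54 FPKM on fructose. Its lowest fructose rat was replicate 1, the rat with the highest Pitx3, En2 and Foxa2, and that rat lay within the chow range. The log2 fold change was 0.73 ± 0.18 (SE). In the order of mean levels on fructose, neighbours from Foxa1 down to Foxa2, Pitx3, Sox14 and En2 did not differ by more than the larger of their SDs. On chow the same held from Foxa1 down to Sox14, Foxa2, Pitx3 and En2.

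**Figure D1:**
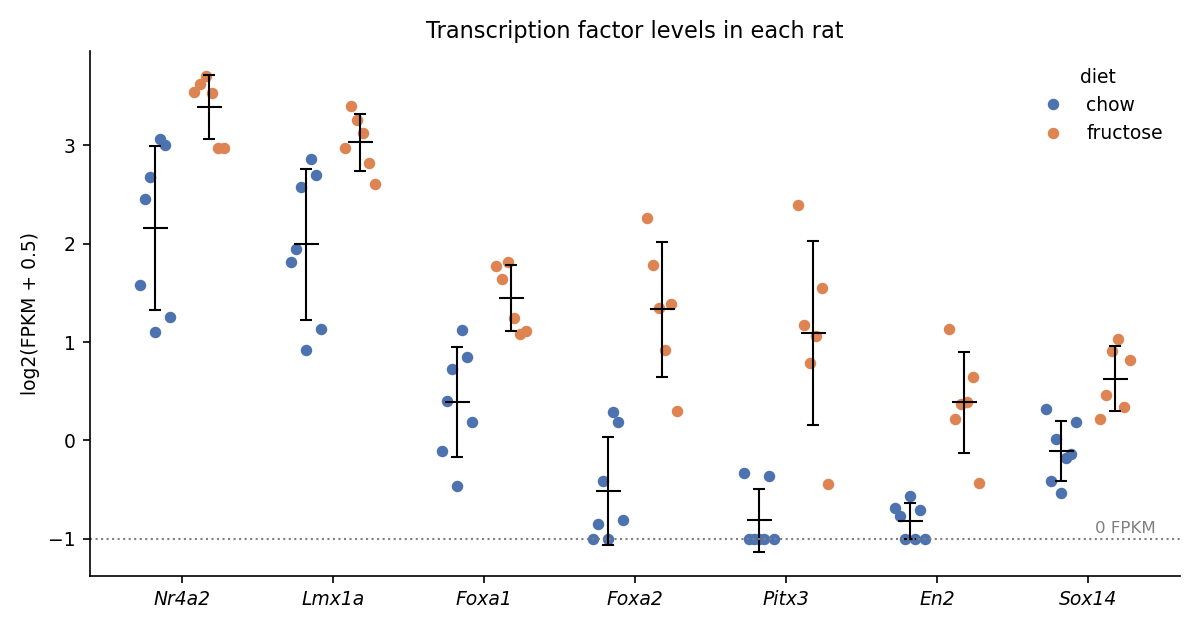
Level of each of the 7 transcription factors in each rat as log2(FPKM + 0.5), with 1 point per rat (7 chow, 6 fructose) and bars for the mean ± SD. Nr4a2 and Lmx1a are well above the line of 0 FPKM on both diets, whereas Pitx3 and En2 sit near it in all chow rats, and the diets overlap for every gene except Foxa2 and En2.

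Diets were compared over all genes with limma on log2(FPKM + 0.5), and an adjusted p under 0.05 counted as a call. Of 11837 genes tested 466 were called (3.94%), 197 of them higher on fructose (1.66%). Of the 7 transcription factors 6 were tested, and 5 of these were called higher (Nr4a2, Pitx3, Foxa1, Foxa2 and Sox14) while Lmx1a was not. In 1 of the 6, Foxa2, the diets did not overlap and fructose was higher, as in 0.879% of all genes tested. Nothing is read from these counts, since the genes were chosen with this contrast known, and Pitx3, Foxa2 and Sox14, with chow means under 0.5 FPKM, entered the test through their fructose values.

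The count also moved with single rats, and is no more a support there. With each of the 13 rats left out in turn between 2 and 5 of the 6 were called, and 2 (Foxa2 and Pitx3) without chow rat 2, 4 or 7 or fructose rat 2, 3, 4 or 6. Over all genes the 466 calls came to between 83 and 859 in these fits.

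The spread between rats of 1 diet does not use the contrast between diets, and was examined for each gene against Slc6a3. The 14 relations, 7 genes in each diet, were each tested over all orders of the rats (exact permutation, two-sided), and 0 of 14 passed after Benjamini-Hochberg adjustment. Among the 6 fructose rats Pitx3 lay closest to Slc6a3, with Pearson r = 0.979 (exact permutation p = 0.00694, adjusted p = 0.0843) and Spearman's rho = 0.943 (exact permutation p = 0.0167, adjusted p = 0.117). Without the 2 rats farthest from the median of Slc6a3, replicates 1 and 6, r was 0.910 over 4 rats. Fructose replicate 1 was highest in both genes and replicate 6 lowest in both.

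En2 followed Slc6a3 on fructose with r = 0.956 (exact permutation p = 0.0167, adjusted p = 0.0843) and rho = 0.771 (exact permutation p = 0.103). Foxa2 did so with r = 0.925 (exact permutation p = 0.0181, adjusted p = 0.0843) and rho = 0.943 (exact permutation p = 0.0167). Without replicates 1 and 6, r was 0.569 for En2 and 0.50 for Foxa2, so both relations lean on those rats. Sox14 ran the other way, with r = -0.786 (exact permutation p = 0.0417, adjusted p = 0.146), rho = -0.829 (exact permutation p = 0.0583) and r = -0.955 without replicates 1 and 6.

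For Nr4a2, Foxa1 and Lmx1a the relation to Slc6a3 on fructose did not pass, even before adjustment. The r was 0.299 for Nr4a2, 0.467 for Foxa1 and 0.220 for Lmx1a (exact permutation p = 0.561, 0.372 and 0.717), with rho of 0.0857, 0.200 and 0.143 (exact permutation p = 0.919, 0.714 and 0.803). It turned negative for all 3 without replicates 1 and 6, at -0.830, -0.508 and -0.569. With Th in place of Slc6a3, r was 0.536 for Nr4a2, 0.529 for Foxa1 and 0.547 for Lmx1a, and 0.966 for Pitx3. On chow, r over the 7 genes lay between -0.178 (En2) and 0.577 (Foxa2), with exact permutation p from 0.156 to 0.952 and rho from -0.0357 to 0.356 (exact permutation p from 0.471 to 1). Chow values rest on chow replicate 5, the rat with the high Slc6a3: without it r was -0.341 for Nr4a2, -0.536 for Foxa1, -0.122 for Foxa2, -0.214 for Lmx1a, 0.050 for Sox14, 0.712 for Pitx3 and 0.820 for En2, the last 2 near the floor in every chow rat. In that rat Pitx3 and En2 were listed at 0, and Foxa2, Nr4a2, Lmx1a and Foxa1 were at their highest among chow rats.

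**Figure D2:**
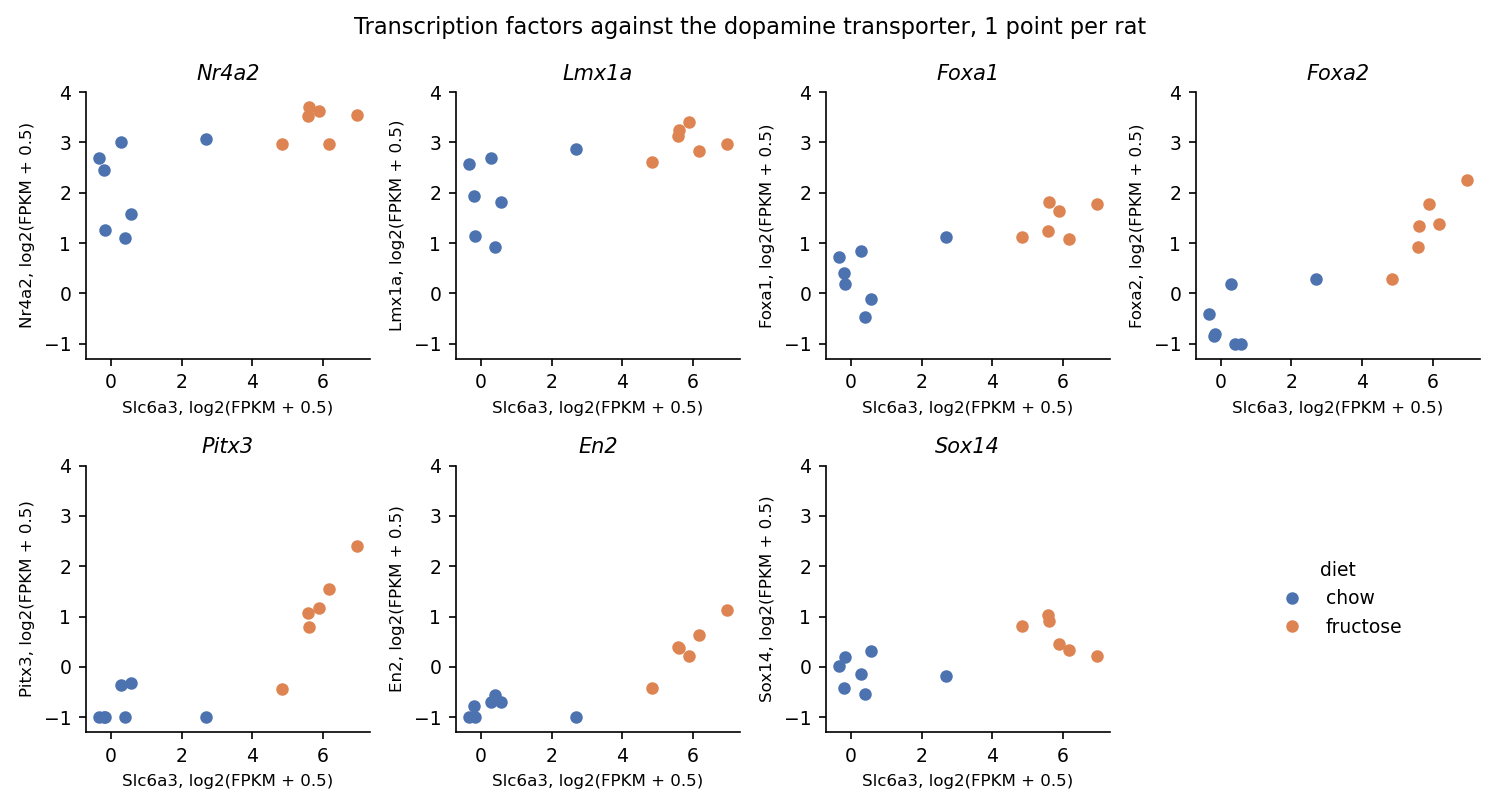
Each transcription factor (vertical axis) against the dopamine transporter Slc6a3 (horizontal axis), both as log2(FPKM + 0.5), with 1 point per rat and colours for the diet. Among the fructose rats Pitx3, En2 and Foxa2 climb with Slc6a3 (r = 0.979, 0.956 and 0.925), Sox14 runs down (r = -0.786), and Nr4a2, Lmx1a and Foxa1 spread on chow while Slc6a3 stays low in 6 of 7 rats.

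Relations among the 7 genes themselves were tested in the same way over 42 pairs (21 per diet), a test added after the values were seen. After adjustment 1 of 42 passed, Nr4a2 with Lmx1a on chow, with r = 0.963 (exact permutation p = 0.000397, adjusted p = 0.0167) and rho = 1, the same order of the 7 rats in both genes. Without chow replicates 4 and 7, the farthest from the median of Nr4a2, r was 0.894. The pair stood at r = 0.887 on fructose (exact permutation p = 0.0139, adjusted p = 0.0972) with rho = 0.829 (exact permutation p = 0.0583), and at 0.643 without fructose replicates 5 and 6. With each chow rat left out in turn r of the pair stayed between 0.947 and 0.985. Over 6 rats the smallest exact permutation p is 0.00139, which adjusts to 0.0583 for a single pair of 42, so a lone pair could not pass on fructose or with a chow rat left out.

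At an unadjusted p under 0.05 stood 11 of the 42 pairs, 6 on chow and 5 on fructose. The 6 on chow were the 6 pairs among Nr4a2, Lmx1a, Foxa1 and Foxa2, with r between 0.841 and 0.963. The 5 on fructose were Nr4a2 with Lmx1a, Nr4a2 with Foxa1 (r = 0.855, exact permutation p = 0.0264, rho = 0.943) and the 3 pairs among Pitx3, En2 and Foxa2. Of those, Pitx3 with En2 had r = 0.974 (exact permutation p = 0.00972, adjusted p = 0.0817, rho = 0.829), Pitx3 with Foxa2 0.903 (exact permutation p = 0.0292, rho = 0.886) and Foxa2 with En2 0.846 (exact permutation p = 0.0444, rho = 0.600). These 3 rest on fructose replicates 1 and 6, without which r was 0.634, 0.193 and -0.351. On chow r of Foxa2 was 0.896 with Foxa1, 0.847 with Nr4a2, 0.111 with Pitx3 and -0.390 with En2. On fructose it was 0.704 with Foxa1 (0.991 without replicates 3 and 5) and 0.539 with Nr4a2. Foxa1 with Lmx1a, at 0.909 on chow, stood at 0.677 on fructose (exact permutation p = 0.143). Whether the r of a pair differs between diets was not tested.

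**Figure D3:**
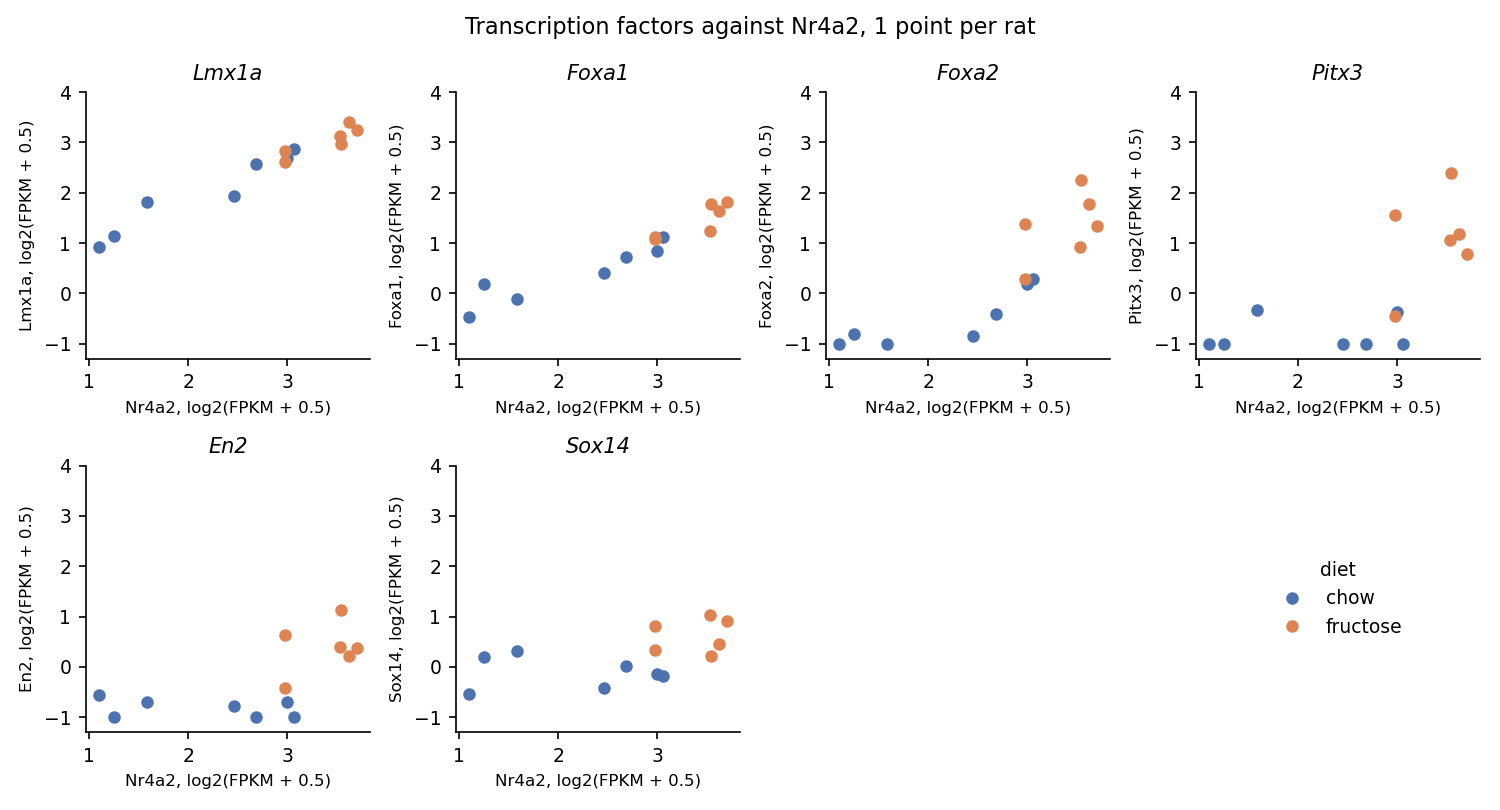
Each of the other 6 transcription factors (vertical axis) against Nr4a2 (horizontal axis), both as log2(FPKM + 0.5), with 1 point per rat and colours for the diet. The chow rats line up for Lmx1a and Foxa1 (r = 0.963 and 0.932), whereas Pitx3 and En2 stay near the floor in the same chow rats.

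The genes nearest to each tested factor were ranked over all 11837 genes by Pearson r over 13 rats, after the mean of its diet was taken from each rat. They are given as a description with no p. Predicted symbols, those that begin with LOC or RGD, were passed over, so nearest means nearest among the other genes. Among the nearest to Nr4a2 were Lmx1a (r = 0.955), Barhl1 (0.925), Barhl2 (0.919) and Foxa1 (0.909). Among the nearest to Lmx1a were Nr4a2, Barhl1 (0.934), Ebf2 (0.902) and Barhl2 (0.887). Barhl1 and Barhl2 are homeodomain factors, and Ebf2 is a helix-loop-helix factor. With 1 rat left out, r of Nr4a2 with Barhl1 lay between 0.899 and 0.9504.

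Among the nearest to Foxa1 were Abhd15 (r = 0.918), an enzyme of the alpha/beta hydrolase family, Nr4a2 (0.909), Lekr1 (0.886) and Lmx1a (0.861). Within chow alone r was 0.953 for Barhl1 with Nr4a2 and 0.982 for Barhl1 with Lmx1a, and within fructose alone 0.738 and 0.597. Barhl1 itself averaged 1.96 ± 0.963 FPKM on chow (SD, n = 7) and 3.09 ± 0.682 FPKM on fructose (SD, n = 6).

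Nearest to Pitx3 were Tmem223 (r = 0.927), a mitochondrial membrane protein gene, and Slc18a2 (0.923), the vesicular monoamine transporter. Heca (0.921), Ddc (0.907), the decarboxylase that makes dopamine, and Cmpk1 (0.907), a nucleotide kinase, followed. With 1 rat left out, the r of Pitx3 fell as low as 0.782 with Ddc, 0.829 with Tmem223 and 0.870 with Slc18a2. On fructose alone its r was 0.981 with Slc18a2 and 0.975 with Ddc, against 0.505 and 0.519 on chow, where Pitx3 was near the floor. Nearest to Foxa2 were Pllp (0.904), plasmolipin of myelin, Bcap29 (0.869), Tp53inp2 (0.863), Fam98a (0.853) and Papss1 (0.851), none of them called between diets. Nearest to Sox14 were Tor3a (0.834), Bsx (0.828), a hypothalamic homeodomain factor, Lrfn2 (0.812), Cngb1 (0.803) and Igsf10 (0.802), also not called.

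Other genes of the same biology were counted from 10 lists drawn up from general knowledge with earlier results of these data known. Of all 11837 genes tested 1.66% were called higher and 269 were called lower, with a median log2 fold change of 0.000851. An unadjusted limma p under 0.05 was reached by 2269 of them, called or not. That level was reached by 15 of 15 dopamine neuron effector genes, 9 of 21 other developmental factors and 2 of 10 patterning signals. It was also reached by 6 of 18 paralogs, 5 of 15 immediate early genes and 8 of 15 posterior hypothalamic factors. The rest were 6 of 9 other midbrain neuron genes, 4 of 5 serotonin genes and 2 of 19 hypothalamus identity genes. Of 15 genes that dopamine neurons use or that mark them, 14 rose on fructose by limma and Vip, a neuropeptide, did not pass (-1.68 ± 0.66), with a median log2 fold change of 1.22. Slc6a3 rose by 5.39 ± 0.43, Th, tyrosine hydroxylase, by 2.401 ± 0.24, Slc18a2 by 1.52 ± 0.16 and Ddc by 1.26 ± 0.16 on the log2 scale (± SE). The list had been seen to rise, so neither its count nor these fold changes are independent evidence. Chrnb3, counted among the 14, averaged 0.156 FPKM on chow and 3.20 FPKM on fructose. It entered the test only through its fructose values, so its call supports nothing. In the 13 fits with 1 rat left out between 11 and 14 were called.

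Of 21 other tested transcription factors of midbrain and dopamine neuron development 3 rose and 18 did not pass (median 0.10). Nkx6-1, a homeodomain factor also of the ventral midbrain, stood at 0.192 ± 0.124 FPKM on chow and was called at 1.17 ± 0.484 FPKM on fructose (log2 fold change 1.24 ± 0.19). Like Pitx3, it entered the test only through its fructose values, so its call supports nothing. Ebf3, a helix-loop-helix factor, rose from 5.54 ± 1.63 to 11.1 ± 2.03 FPKM (0.97 ± 0.18, limma adjusted p = 0.0154). Ebf3 kept its call with any 1 rat left out. Nkx2-2 (0.32 ± 0.08) kept its call only without chow rat 1 or fructose rat 5. The retinoid X receptors Rxra, Rxrb and Rxrg, partners of Nr4a2, did not pass, at 0.10 ± 0.14, 0.01 ± 0.06 and 0.36 ± 0.16. Otx2, a factor of the embryonic midbrain, has 2 rows, both listed at 0 in all 13 rats. Of 10 tested signals of midbrain patterning, Shh among them (4.67 FPKM on chow and 4.74 on fructose), 0 were called by limma after adjustment. An unadjusted p under 0.05 was reached by 2 with limma and by 1 with the exact permutation test (0 after adjustment). Over all 11837 genes tested limma gave 466 and 2269, so no stability of these signals is read from the counts.

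Paralogs of the factors were counted next. Of 18 tested 1 rose, Foxb1, a forkhead factor of the mammillary bodies (0.99 ± 0.23, limma adjusted p = 0.0320), and 17 did not pass (median -0.03). The call of Foxb1 was lost without chow rat 2, 4 or 7 or fructose rat 3, 4 or 6. Nr4a1 and Nr4a3, the paralogs of Nr4a2, stood at -0.09 ± 0.14 and -0.50 ± 0.17 and did not pass, against 1.23 ± 0.32 for Nr4a2. Of 15 tested immediate early genes beside Nr4a2, 2 fell, Fos (-0.72 ± 0.19) and Dusp1 (-0.78 ± 0.20), and 13 did not pass (median -0.01). Fos kept its call only without chow rat 6 or fructose rat 3, and Dusp1 only without chow rat 1 or 6 or fructose rat 1 or 5.

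Of 15 tested transcription factors of the posterior hypothalamus, mammillary bodies and subthalamic nucleus 3 rose and 12 did not pass, with a median log2 fold change of 0.49. Emx2 rose from 0.524 ± 0.168 to 1.27 ± 0.167 FPKM (0.80 ± 0.13, limma adjusted p = 0.00874) and Uncx from 0.827 ± 0.248 to 2.13 ± 0.61 FPKM (0.98 ± 0.17, limma adjusted p = 0.00971), and Foxb1 was the third. Emx2 and Uncx, both homeodomain factors, kept their calls with any 1 rat left out. Barhl1 (0.63 ± 0.24) and Barhl2 (0.62 ± 0.23), near Nr4a2 and Lmx1a in the ranking above, did not pass. The part of posterior hypothalamic or subthalamic neurons in the levels of Nr4a2, Lmx1a and Foxa1 was not tested.

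**Figure D4:**
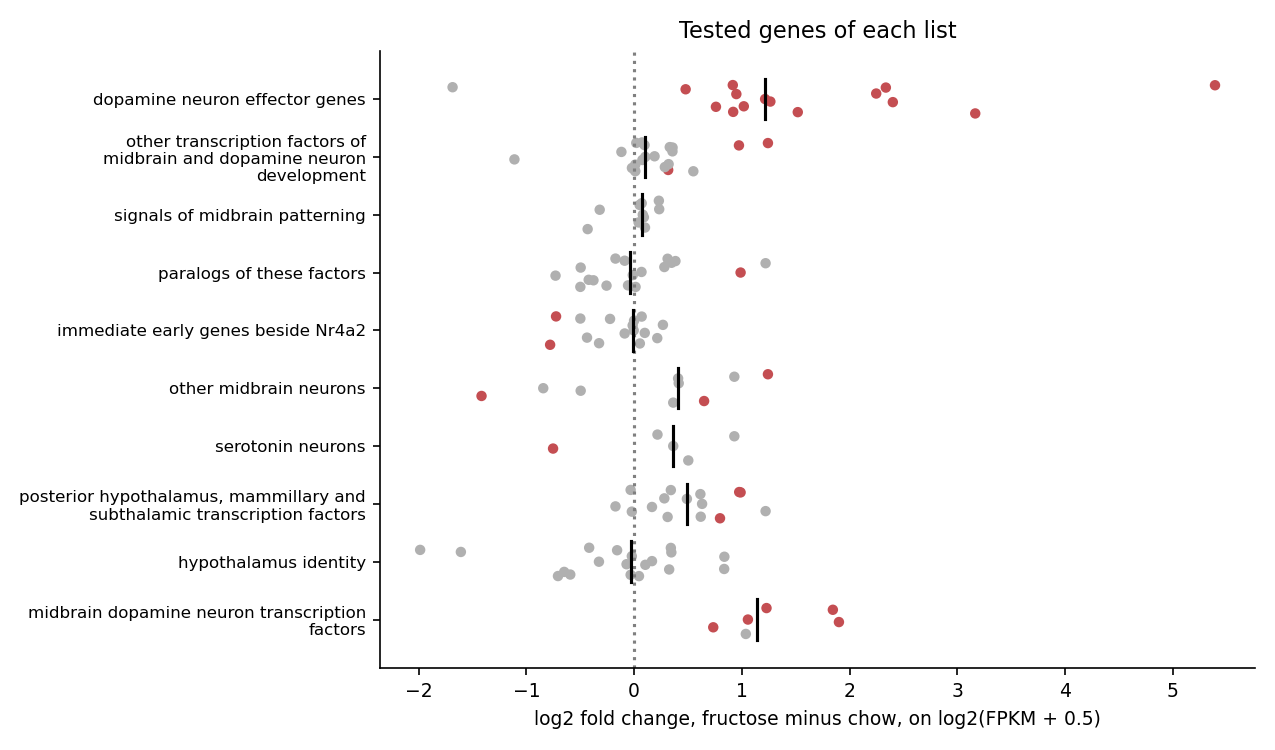
Log2 fold change (fructose minus chow) on the log2(FPKM + 0.5) scale for each tested gene of the lists, with red points for genes called by limma at an adjusted p under 0.05, black bars for list medians and a dotted line for the median of all genes tested. Dopamine neuron effector genes (median 1.22) lie to the right and paralogs (median -0.03) are spread about the dotted line. The row of midbrain dopamine neuron transcription factors holds genes chosen with this contrast known, so nothing is read from it.

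Defining markers of serotonin and noradrenaline neurons were near the floor in the tissue. Tph2, the serotonin-making hydroxylase of neurons, lay between 0.107 and 0.514 FPKM over all rats, Slc6a4, the serotonin transporter, was at most 0.209 FPKM, and Fev, a defining factor of serotonin neurons, was listed at 0 in 11 of 13 rats. The summed level of the 8 serotonin list genes, which include Maob and Gata2 of other cells, ran from 43.5 to 59.0 FPKM on chow and from 47.5 to 65.4 FPKM on fructose. Of its 5 tested genes 4 had an unadjusted limma p under 0.05. After adjustment 1 fell, Slc22a3 (-0.75 ± 0.15), while 4 did not pass. That call was lost without chow rat 2 or 4 or fructose rat 4 or 6. Noradrenaline genes summed to between 0.0541 and 0.458 FPKM on chow and 0.177 and 0.527 FPKM on fructose over 5 genes, with Dbh listed at 0 in 7 of 13 rats, and 0 of them were high enough to be tested.

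Other midbrain neurons were covered by 17 symbols in the table, of which 9 were tested. Of these 2 rose, Nkx6-1 and Tac1 (0.65 ± 0.17), 1 fell, Lef1 (-1.42 ± 0.35), and 6 did not pass, with a median log2 fold change of 0.41 against 0.000851 over all genes tested. Nkx6-1, Gata3 and Chrnb4, with chow means of 0.192, 0.327 and 0.430 FPKM, entered the test only through their fructose values. The median is the value of Chrnb4, so no shift of the list is read from it or from the call of Nkx6-1. The mean of Tac1 went from 48.5 to 75.4 FPKM and that of Lef1 from 35.9 to 13.7 FPKM, and both weigh heavily, in opposite directions, in the sum of the list. Tac1, a tachykinin, and Lef1, a factor also known from the thalamus, lost their calls in 10 and 8 of the 13 fits with 1 rat left out. That summed level ran from 92.7 to 130 FPKM on chow and from 88.3 to 123 FPKM on fructose, and Pou4f2 was listed at 0 in 12 of 13 rats. The summed level of the dopamine neuron effector genes ran from 206 to 244 FPKM on chow and from 349 to 824 FPKM on fructose. That list had been seen to rise, so its sum is no independent evidence. The summed level of the hypothalamus identity genes ran from 4252 to 9913 FPKM on chow and from 1693 to 7393 FPKM on fructose. The part of midbrain tissue in the difference of the 7 factors was not tested.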

How the data were processed

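RNA of the hypothalamus was sequenced from 13 rats. The deposited values are FPKM, 1 column per rat, and the tools named, per the submitters' processing notes, are Cuffdiff, Cufflinks 2.1.1 and STAR 2.3.0e, with build rn5. Settings and annotation are unknown here. Each column was assigned to the rat whose title it bears and groups taken from the diet label, with replicates numbered in accession order. Genes that averaged 0.5 FPKM or more were analysed as log2(FPKM + 0.5) with limma 3.58.1 in R 4.3.3 (intensity trend, two-sided, Benjamini-Hochberg over 11837 genes). The pseudocount makes fold changes of low genes too small. Correlations used Python 3.11.15 with all orders of the rats of a diet. Read depth is unknown: ratios of low values between rats had no common step, since the fullest bin of 2% width held 4.42% to 13.4% of rows. The spread between rats is thus the only measure of precision, and cage mates may not be independent.

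The 9 genes and the 10 lists (148 of 159 symbols found) were chosen with earlier results of these data known. Named genes are the 9, up to 4 of each list, and the 5 nearest genes of each factor tested, with LOC and RGD symbols passed over. Any named beyond this rule (Pou4f2, Shh and the retinoid X receptors among them) were chosen after their values were seen. One gene is not reported here, so some factors have fewer than 5 nearest genes named. Tried instead were a pseudocount of 0.1 or 1, a filter at 2 FPKM or none, quantile or median-ratio scaling, robust empirical Bayes, array weights, the exact permutation test per gene, Th in place of Slc6a3, Spearman's rho and leaving out each rat. Code was tested on simulated data.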

Additional observations from a re-analysis of the deposited data

Results flagged for a closer look

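Slc6a3 in chow replicate 5, at 5.95 FPKM, stood apart from the other 6 chow rats, which lay between 0.285 and 0.978 FPKM, its gap to the nearest being larger than Dixon's critical value allows. It was the only such value among 18 groups examined (the 7 factors, Slc6a3 and Th in each diet), and chance gives about 1 in 20. In the same rat Th was 27.8 FPKM, the highest on chow, Nr4a2, Lmx1a, Foxa1 and Foxa2 were at their chow maximum, and Pitx3 and En2 were listed at 0.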

How the results depend on the processing

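The log2 fold changes of the 7 factors kept their sign under every alternative that gave a value, and with 1 rat left out ran from 1.05 to 1.38 for Nr4a2, 0.86 to 1.18 for Lmx1a, 0.91 to 1.18 for Foxa1, 1.66 to 2.05 for Foxa2, 1.64 to 2.21 for Pitx3, 1.06 to 1.37 for En2 and 0.66 to 0.82 for Sox14. The pseudocount set the size for low genes: at 0.1 FPKM it was 3.45 for Pitx3, 3.06 for Foxa2, 2.47 for En2 and 1.14 for Sox14, and at 1 FPKM 0.77 for En2. The 466 calls over all genes came to 130 with no filter, 1019 with array weights and 83 to 859 with 1 rat left out. With the exact permutation test they came to 0 (2223 at an unadjusted p under 0.05, against 2269 by limma). The smallest p of that test, 0.000583, is the lowest that 13 rats allow. It was reached by 104 genes and adjusts to 0.0663. Of the 7 factors 3 were called with no filter (En2, Foxa2 and Pitx3), 1 with a mean of at least 2 FPKM (Nr4a2, where only 2 were tested) and 2 to 5 with 1 rat left out. Calls in lists became 0 with no filter for paralogs, immediate early genes and serotonin neurons and 1 for other midbrain neurons. Array weights gave 2 for paralogs, 2 for serotonin neurons and 1 for hypothalamus identity. Immediate early genes had 1 with a pseudocount of 0.1, quantile normalization, median-ratio scaling or robust empirical Bayes, other midbrain neurons 1 with robust empirical Bayes, and posterior hypothalamic factors 1 with a mean of at least 2 FPKM. With 1 rat left out the calls ran from 11 to 14 for dopamine neuron effector genes, 2 to 4 for other factors of development and for posterior hypothalamic factors, 0 to 1 for patterning signals, 0 to 3 for paralogs and for immediate early genes, 1 to 4 for other midbrain neurons, 0 to 2 for serotonin neurons and came to 0 in each fit for noradrenaline neurons and hypothalamus identity. The cause was not tested.

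The relation to Slc6a3 on chow changed sign without the 2 rats farthest from its median for Nr4a2 (-0.145), Pitx3 (0.682), Foxa1 (-0.379), En2 (0.730) and Sox14 (0.174), with Spearman's rho for Pitx3 (0.356) and En2 (0.334), with Th in its place for Pitx3 (0.425) and En2 (0.263) and with a pseudocount of 0.1 for Pitx3 (0.0469). On fructose it did so without the 2 farthest rats for Nr4a2 (-0.830), Foxa1 (-0.508) and Lmx1a (-0.569). With 1 chow rat left out r ran from -0.341 to 0.493 for Nr4a2, -0.117 to 0.712 for Pitx3, -0.536 to 0.546 for Foxa1, -0.122 to 0.747 for Foxa2, -0.214 to 0.595 for Lmx1a, -0.391 to 0.820 for En2 and -0.247 to 0.050 for Sox14. With 1 fructose rat left out it ran from -0.230 to 0.582 for Nr4a2, 0.974 to 0.994 for Pitx3, 0.166 to 0.716 for Foxa1, 0.850 to 0.968 for Foxa2, -0.546 to 0.474 for Lmx1a, 0.912 to 0.974 for En2 and -0.857 to -0.634 for Sox14. The count of pairs among the factors that passed, 1, became 0 with a pseudocount of 1, 4 with Spearman's rho and 0 to 3 with 1 rat left out. No paired analysis was possible because the labels name no replicate, litter or cage number. Each title ends in a pair of numbers of unstated meaning. The first was lower in every chow rat than in any fructose rat, so it cannot be told apart from diet. It was shared only by chow replicates 1 and 2. The second was shared by several rats within and across diets, and neither number was used. Read depth is unknown, so how many reads lie behind levels under 0.5 FPKM, such as those of Pitx3 and En2 on chow, cannot be given.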
